A study of Mus musculus with 16 samples.

Results

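The genes described here encode 7 milk proteins, Csn1s1, Csn2, Csn3, Lalba, Ltf, Lcn2 and Mfge8, measured in pubertal mammary glands before any pregnancy. They were chosen by name, all 7 are rows of the UMI count table, and they are 7 of its 17721 genes. Single fragments of nipple (4), duct (6) and terminal end bud (TEB, 6), the growing tip of the pubertal duct, were dissociated and their cells were sorted into wells of barcoded plates. The labels give the strain as C57BL/6 and the source of each fragment. The mice were K14-Cre/R26-mTmG at an age of 5 weeks, although the description of the dissection also allows wild-type mice and an age of 6 weeks. In these animals the Krt14 promoter drives Cre and the reporter changes colour on recombination, and no milk gene is named as targeted and no hormone as given in any group. The labels name neither the animal nor the genotype of a fragment, so that p-values measure the spread between fragments, some of which may share an animal.

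Milk is made by luminal cells. During pregnancy prolactin acts through its receptor, the kinase JAK2 and the transcription factor STAT5, together with glucocorticoids, to raise transcription of the caseins and alpha-lactalbumin in alveolar cells, which are thought to arise from ER- luminal progenitors, and Elf5 is a transcription factor needed for that step. The caseins Csn1s1 (alpha-S1), Csn2 (beta) and Csn3 (kappa, which keeps casein micelles in suspension) carry protein and calcium, and Lalba turns the galactosyltransferase B4galt1 into lactose synthase. Ltf (lactoferrin) and Lcn2 (lipocalin 2) withhold iron from bacteria, and Mfge8 (lactadherin) coats milk fat globules and binds phosphatidylserine on dying cells.

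The 3 caseins lie in a cluster on chromosome 5. In GRCm38 with the GENCODE M21 annotation, Csn1s1 spans chr5:87666208-87682578 on the plus strand, Csn2 chr5:87692624-87699630 on the minus strand and Csn3 chr5:87925579-87932665 on the plus strand. The gap between Csn1s1 and Csn2 is 10045 bp, against 225948 bp between Csn2 and Csn3. Lcn2 lies at chr2:32384633-32388252 (minus), Mfge8 at chr7:79133768-79149060 (minus), Ltf at chr9:111019271-111042767 (plus) and Lalba at chr15:98480400-98482721 (minus), and all 7 are protein coding.

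Promoter windows of 250 bases before to 50 bases after the gene start (RefSeq, GRCm38.p6) were searched on both strands for TTCNNNGAA, the palindromic motif that STAT5 binds. Of 6 members with a window, 2 held it, Csn1s1 and Csn2, which are also members counted in few cells below. The motif was found in 2726 of 32851 windows of that length (8.3%), and a match is a description of the letters and not of binding. The stretches are shown for these 2 caseins on the gene's own strand, with the motif in capitals and 10 bases on either side. The RefSeq start of Csn2 lies inside the GENCODE span given above, and so does its motif.
Csn1s1, chr5:87666098-87666126, plus strand, motif starting 100 bases upstream of the RefSeq start: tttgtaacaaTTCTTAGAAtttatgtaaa
Csn2, chr5:87699500-87699528, minus strand, motif starting 93 bases upstream of the RefSeq start: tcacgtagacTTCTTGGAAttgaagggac

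The table held 1419 cells with 2050990 to 3434770 UMIs per duct fragment, 2385065 to 3381040 per nipple fragment and 1856141 to 5233122 per TEB fragment. Of 1317 cells kept, 294 were basal-like (97 nipple, 115 duct and 82 TEB), 178 ER- luminal-like (48, 80 and 50), 428 ER+ luminal-like (44, 213 and 171), 252 fibroblast-like and 78 myeloid-like, and 87 stayed unnamed. Basal-like nipple and duct cells fell in a cluster led by Cnn1, Actg2 and Myh11 (96 nipple, 115 duct and 0 TEB cells), and TEB basal-like cells in another led by A230065H16Rik, Fabp5 and Gpx2 (1, 0 and 82), whose 10 leading genes held none of the basal markers. TEB cells were also deeper, at a median of 44192.5 UMIs per basal-like cell against 23146 in duct and 21856 in nipple. All 95 well barcodes occur in several fragments because the plates share a barcode set. Levels are given as CPM, counts per 1e6, the UMIs of a gene scaled to 1e6 gene UMIs of a fragment's cells of 1 class. UMIs are read from the 3' end and need no scaling by transcript length.

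Part of the UMIs of a cell can come from other wells. This part was estimated from fibroblast and myeloid markers in epithelial cells, and from keratins and Epcam in the other classes, and came to a mean of 8.06% of the fragment's pool in nipple, 16.5% in duct and 9.68% in TEB ER- luminal-like cells (n = 4, 6 and 4 fragments). In basal-like cells it was 7.85%, 12.2% and 8.29% (n = 4, 6 and 6). The UMIs expected from other wells are this share of a gene's pooled rate, and a count near or below them is read as background. Free RNA, exchange of barcodes and mixed wells cannot be told apart as its source.

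Csn3, Ltf and Lcn2 were highest in ER- luminal-like cells at all locations. In the 14 fragments with enough cells of both classes, each of these 3 was higher in ER- luminal-like than in basal-like cells in 14 of 14. Against ER+ luminal-like cells the same order held in 14 of 14 fragments for Ltf and Lcn2 and in 13 of 14 for Csn3. Mfge8 had no such order, since it was higher in basal-like cells in 6 fragments and in ER- luminal-like cells in 8. These orders are a description with no test, because the classes were clustered from the same counts and Csn3 and Ltf are among the leading genes of the ER- cluster. Pooled over fragments, Csn3 stood at 2963 CPM in ER- luminal-like, 486 in basal-like, 111 in ER+ luminal-like, 31.8 in myeloid-like and 15.4 in fibroblast-like cells.

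**Figure D1:**
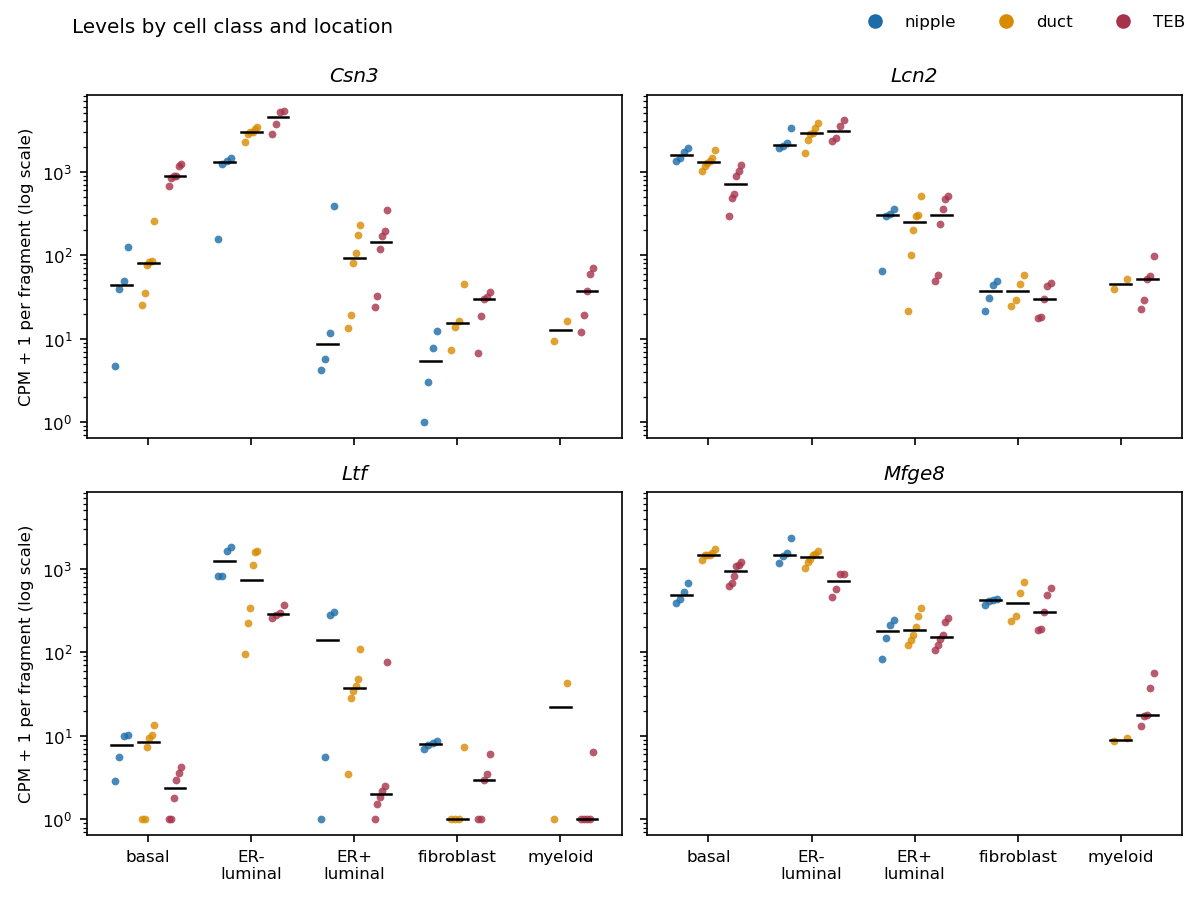
Levels of Csn3, Lcn2, Ltf and Mfge8 (CPM + 1, log axis) in sums of at least 5 cells per fragment and class, coloured by location, with a bar at each group's median. Csn3 of basal-like cells splits by location (at least 675 CPM in each TEB fragment, at most 257 elsewhere), and Ltf is at or above 95.3 CPM in each ER- luminal-like fragment and at most 12.5 in each basal-like fragment.

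The counted UMIs of ER- luminal-like cells were far above those expected from other wells. For Csn3, the expected UMIs came to 1.26% of the count in nipple, 2.92% in duct and 2.30% in TEB. In fibroblast-like cells they came to 176% to 254% of the count and in myeloid-like cells to 168% to 298%, so that Csn3 in these classes did not exceed background. For Ltf in basal-like cells the count was also below background, at 13 UMIs in nipple, 18 in duct and 5 in TEB against 29.8, 58.9 and 15.3 expected. Mfge8 in fibroblast-like cells was above it, at 1941, 606 and 1170 UMIs in nipple, duct and TEB, of which 7.76%, 11.8% and 8.95% were expected from other wells.

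**Figure D2:**
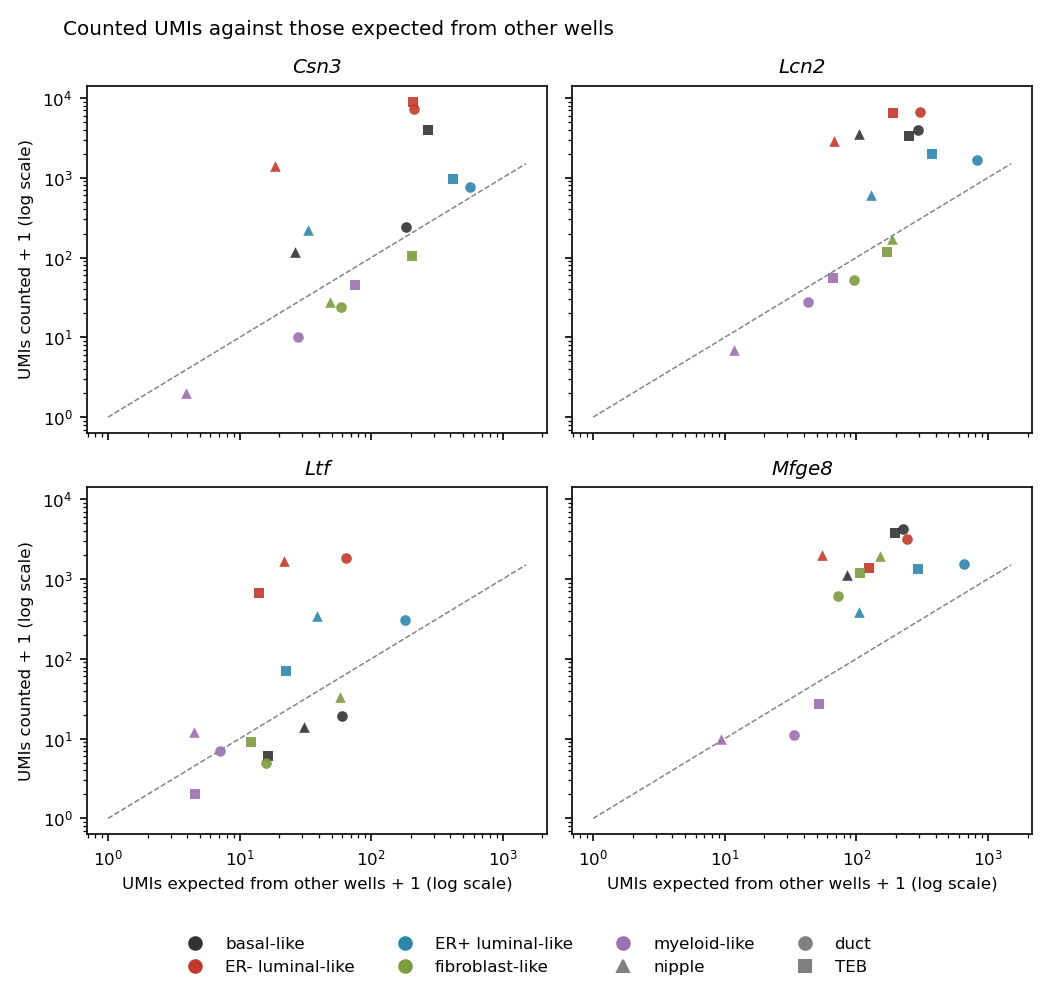
UMIs counted against UMIs expected from other wells (both + 1, log axes) for Csn3, Lcn2, Ltf and Mfge8, a point for each class (colour) and location (shape), with a dashed line of equality. ER- luminal-like points sit far above the line for all 4 genes, while fibroblast-like and myeloid-like points of Csn3 sit below it.

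In ER- luminal-like cells, Csn3 was lowest in nipple. The 4 nipple fragments held 156 (N21), 1444 (N22), 1335 (N23) and 1248 CPM (N24), duct fragments 2244 to 3421 (median 3012, n = 6), and the 4 TEB fragments tested 5222 (T32), 3730 (T33), 5393 (T34) and 2815 (T42). Nipple fragments overlapped neither duct nor TEB fragments, while duct and TEB overlapped. The log2 difference was -1.43 ± 0.46 (SE) for nipple minus duct and -1.91 ± 0.49 for nipple minus TEB, with adjusted p = 0.199 and 0.0502 in edgeR's quasi-likelihood test, so that neither passed the threshold of 0.05. Fragment N21 stood apart, with Csn3 in 1 of its 11 cells. Without N21 the differences were -1.08 (adjusted p = 0.00111) and -1.54 (adjusted p = 5.97e-06) in edgeR, and both passed. The other 2 TEB fragments had under 5 such cells, were not tested, and held 8763 CPM (T31, 4 cells) and 2896 CPM (T43, 3 cells).

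The share of ER- luminal-like cells that carried Csn3 followed the same order. At least 10 Csn3 UMIs were found in 29.2% of nipple cells (9.09% to 50% per fragment), 86.2% of duct cells (71.4% to 100%) and 96% of TEB cells (88.9% to 100%). Depth differed in the same direction, with medians of 20497.5, 24677 and 38262.5 UMIs per cell. After each cell was thinned to 5000 UMIs, which left out 1 nipple cell, Csn3 was detected in 31.9%, 92.5% and 96% of cells at means of 3.62, 15 and 23.9 UMIs. Thinned fibroblast-like cells, which should lack Csn3, had it in 3.45%, 21.1% and 10.2% of cells.

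Ltf ran in the other direction across locations, without passing the test. Nipple ER- luminal-like cells held 830 (N21), 1619 (N22), 1851 (N23) and 832 CPM (N24), and TEB cells 369 (T32), 292 (T33), 282 (T34) and 254 (T42), with no overlap. Duct fragments spanned both, from 95.3 to 1624 CPM (median 733), with D31, D61 and D62 at or below 340 and D32, D51 and D52 at or above 1125. The log2 difference for nipple minus TEB was 2.23 ± 0.77 (edgeR adjusted p = 0.150), for nipple minus duct 0.70 ± 0.66 (0.783) and for duct minus TEB 1.53 ± 0.71 (0.504). The nipple minus TEB difference was called by DESeq2 (2.22, adjusted p = 0.0364) and by edgeR on nipple and TEB fragments alone (2.22, adjusted p = 2.98e-05).

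Csn3 and Ltf did not mark the same ER- luminal-like cells throughout. Of 178 cells, 55 held at least 10 UMIs of both, 76 of Csn3 alone, 20 of Ltf alone and 27 of neither. In nipple these counts were 9, 5, 14 and 20 of 48 cells, in duct 31, 38, 5 and 6 of 80, and in TEB 15, 33, 1 and 1 of 50. Cells with Ltf and little Csn3 were thus 14 of the 20 from nipple, where Ltf passed 10 UMIs in 47.9% of cells against 29.2% for Csn3. Over all 178 cells Spearman's rho of Csn3 and Ltf was -0.08, and -0.15 in 177 thinned cells. Csn3 and Lcn2 had a rho of 0.56 and 0.26 after thinning, and Csn3 and total UMIs 0.56. These are descriptions, since cells share fragments and depth and the rho pools locations in which Csn3 and Ltf run in opposite directions. Within nipple, more cells with at least 10 Csn3 UMIs also passed 10 for Ltf (9) than did not (5). Among nipple cells with fewer Csn3 UMIs, fewer passed it (14) than did not (20).

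**Figure D3:**
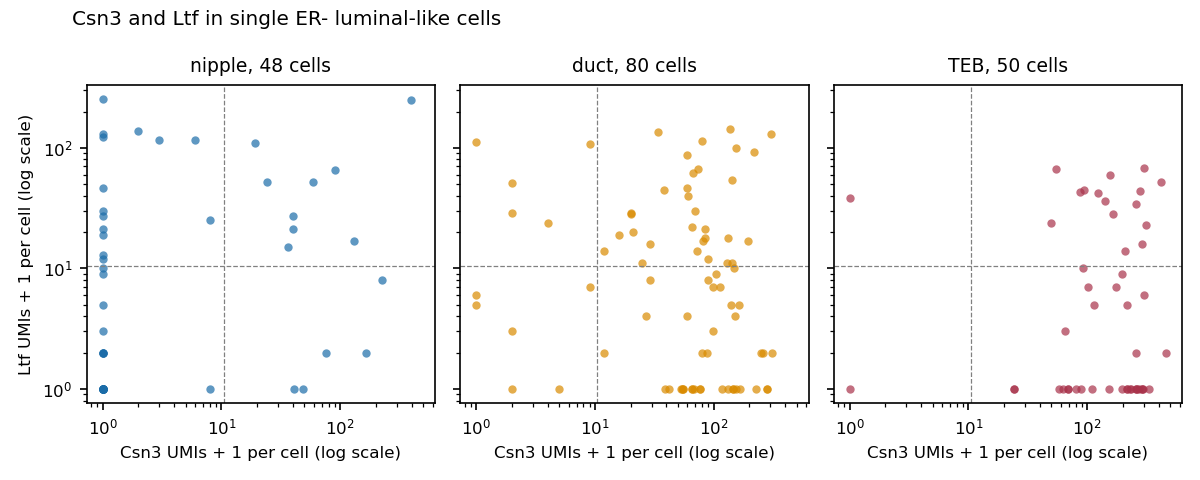
Csn3 and Ltf UMIs (both + 1, log axes) in single ER- luminal-like cells of nipple, duct and TEB, with dashed lines at 10 UMIs. Nipple cells spread over all 4 fields (9, 5, 14 and 20 cells with both, Csn3 alone, Ltf alone and neither), while 48 of 50 TEB cells lie right of the Csn3 line.

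Basal-like cells were the class with the most called members. Of the 3 members that passed the filter on low counts, Csn3, Lcn2 and Mfge8, 3 were called across locations (edgeR adjusted p = 3.57e-04, 0.0177 and 9.59e-08), against a background of 20.6% of all genes tested. By pair, 1 of 3 was called for nipple minus duct (background 6.29%), 3 of 3 for nipple minus TEB (18.7%) and 3 of 3 for duct minus TEB (10.4%). The median log2 difference of the 3 was -0.74, -0.70 and 0.85 in these pairs, against -0.04, -0.05 and -0.04 over all genes tested, and the members went in different directions. The nipple and duct cells and the TEB cells of these comparisons come from the different clusters named above.

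Csn3 in basal-like cells was high in TEB alone. Nipple fragments held 3.8 to 124 CPM (n = 4), duct fragments 24.3 to 257 (median 79.2, n = 6) and TEB fragments 675 to 1238 (median 885, n = 6), without overlap of TEB and either other location. The log2 difference was -3.98 ± 0.71 for nipple minus TEB (edgeR adjusted p = 1.29e-03), -3.24 ± 0.58 for duct minus TEB (1.85e-03) and -0.74 ± 0.68 for nipple minus duct (0.662). The UMIs expected from other wells came to 75.5% of the count in duct and 21.6% in nipple, against 6.81% in TEB. The study chose Csn3 as a TEB basal gene from these same samples, so that its direction here is not independent evidence. The study also measured its signature genes by real-time PCR in basal cells of TEB, duct and nipple, and reported matching patterns.

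The Csn3 of TEB basal-like cells was spread over many cells. At least 10 UMIs were found in 52 of 82 cells, 46.2% to 78.3% of the cells of each fragment, against 0% to 13.3% in duct and 0% to 4.35% in nipple fragments. After thinning, Csn3 was detected in 72% of TEB, 26.1% of duct and 9.28% of nipple basal-like cells, of which the duct share was close to that of duct fibroblast-like cells (21.1%). Acta2, the smooth muscle actin of myoepithelial cells, was at 3133 CPM in the 34 cells with at least 10 UMIs of both Csn3 and the luminal keratin Krt18, and at 3328 CPM in the 15 cells with under 10 of either. The basal keratins were lower in the first group than in the second, with Krt5 at 300.5 against 754 CPM, Krt14 at 602 against 1168 and Krt17 at 1373 against 3174. These groups differ in both Csn3 and Krt18, and each is a single pool of cells from several fragments. Among cells with at least 10 Krt18 UMIs, those with at least 10 Csn3 UMIs held less Krt5 (300.5 against 608 CPM) and Krt17 (1373 against 1927). Krt14 went the other way there, at 602 against 473 CPM. Among cells with under 10 Krt18 UMIs, Krt5 was 452.5 against 754, Krt14 407 against 1168 and Krt17 1650 against 3174 CPM. In the 34 cells Wfdc18, a leading gene of the ER- cluster, was at 312 CPM beside Csn3 at 1472 CPM, whereas TEB ER- luminal-like cells held 7188 CPM of Wfdc18 beside 4094 of Csn3. Their Aldh1a3, an aldehyde dehydrogenase of ER- luminal progenitors, was at 28.3 CPM against 572 CPM in TEB ER- luminal-like cells. Over all TEB basal-like cells Elf5, Kit, Rspo1 and Gabrp were also lower than in TEB ER- luminal-like cells. Itga2 went the other way, at 48.2 against 16.9 CPM. In the 15 cells with at least 10 Krt18 and under 10 Csn3 UMIs, Wfdc18 was at 1125 CPM and Kit at 29.75, against 13.66 for Kit in the 34 cells. The source of the Csn3 was not tested.

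In cells pooled over the 6 TEB fragments, keratin levels were not alike in TEB basal-like cells with more and with less Csn3. T42 and T43 gave 23 and 20 of the 82 cells. The spread of these values between fragments was not examined, and they are a description with no test. Those 34 cells carried 77% of the Csn3 UMIs of TEB basal-like cells and were deep, at a median of 60304.5 UMIs, and another 18 cells with Csn3 and under 10 Krt18 UMIs held 1206 CPM of Csn3 at a median of 33631.5. Krt5, a basal keratin, had a median of 7.5 UMIs per cell in TEB against 39 in duct and 31 in nipple, and TEB cells with under 10 Krt5 UMIs held more Csn3 (1411 CPM, 47 cells) than those with at least 10 (606 CPM, 35 cells). The direction was the opposite in duct (66.7 against 82.6 CPM, 6 and 109 cells) and nipple (22.8 against 56.4 CPM, 12 and 85 cells). Per UMI, Krt18 was lower in TEB cells rich in Csn3, at 365 against 502 CPM among cells with at least 10 Krt18 UMIs and 138 against 187 CPM among the others. The cells rich in Csn3 were deeper in both, at medians of 60304.5 against 39020 and 33631.5 against 23834 UMIs. A fixed cut on Krt18 UMIs admits lower Krt18 CPM in deeper cells, so that these values are not free of depth. The summed luminal markers were 2941 to 5354 CPM in TEB, 6595 to 11072 in duct and 4583 to 6126 in nipple basal-like fragments. Single markers of that sum did not all follow it. Kit was highest in TEB, at 13.9 CPM against 1.73 in duct and 0 in nipple, while Aldh1a3 was 26.3, 39.4 and 6.43 CPM in the same order. When only cells with under 10 Krt18 UMIs were kept (4, 2 and 4 fragments of nipple, duct and TEB), 0 of 3 members were called across locations in edgeR (1 of 3, Mfge8, at an unadjusted p under 0.05), and Csn3 differed by -2.51 for nipple minus TEB (adjusted p = 0.429) and by -3.31 for duct minus TEB (0.612), so that the latter was as large as before without a call. Lcn2 for nipple minus TEB was 0.99 (0.512). With at least 10 Krt5 UMIs (4, 6 and 5 fragments), 3 of 3 were called and Csn3 differed by -3.42 (adjusted p = 0.00963). The part of doublets or of a mixed identity in these values was not tested.

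**Figure D4:**
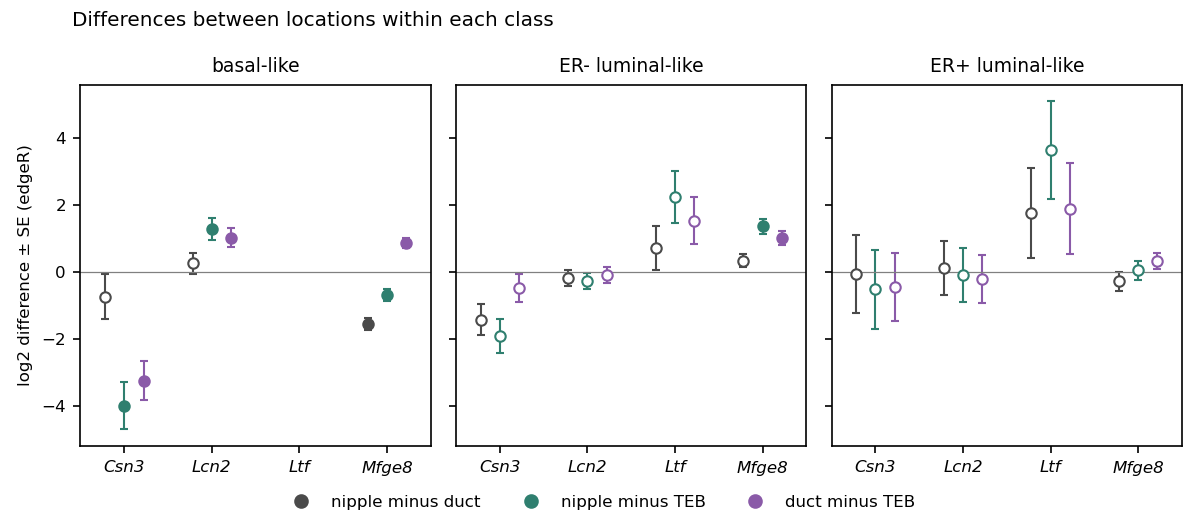
Log2 differences (± SE) between locations in edgeR for Csn3, Lcn2, Ltf and Mfge8 in basal-like, ER- and ER+ luminal-like cells, with filled points where the adjusted p is under 0.05. Basal-like cells hold 7 filled points and ER- luminal-like cells 2, both for Mfge8, and ER+ luminal-like cells hold none.

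Lcn2 was lower in TEB basal-like cells. Its levels were 1477 (N21), 1727 (N22), 1325 (N23) and 1933 CPM (N24) in nipple, 1026 to 1837 in duct, at a median of 1307, and 291 to 1215 in TEB, at a median of 721. Nipple and TEB fragments did not overlap, while duct and TEB fragments did, and the TEB fragments with the highest levels were T42 and T43. The log2 difference was 1.28 ± 0.32 for nipple minus TEB (edgeR adjusted p = 0.0102), 1.02 ± 0.29 for duct minus TEB (0.0348) and 0.25 ± 0.32 for nipple minus duct (0.770). The call for duct minus TEB was lost without D51, D52, D61, D62, T33 or T34, each left out in turn (adjusted p 0.0515 to 0.0706). Lcn2 of ER- luminal-like cells was 1900 to 3330 CPM in nipple, 1664 to 3843 in duct and 2326 to 4172 in TEB, with all locations overlapping (adjusted p across locations 0.839). The difference between these classes for nipple minus TEB, 1.60 ± 0.35 on the log2 scale over 14 fragments, passed the test (edgeR adjusted p = 0.0297, background 1.99%).

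Mfge8 was lowest in nipple among basal-like cells and lowest in TEB among ER- luminal-like cells. In basal-like cells it was, in nipple, at 681 (N21), 532 (N22), 433 (N23) and 390 CPM (N24), then in TEB at 618 to 1224 (median 948), and highest in duct at 1264 to 1710 (median 1468), and duct overlapped neither. The log2 difference was -1.55 ± 0.18 for nipple minus duct (edgeR adjusted p = 3.64e-07), -0.70 ± 0.18 for nipple minus TEB (4.80e-03) and 0.85 ± 0.16 for duct minus TEB (1.51e-04). In ER- luminal-like cells nipple was at 2326 (N21), 1410 (N22), 1181 (N23) and 1549 CPM (N24), duct at 1037 to 1623 (median 1385) and TEB at 863 (T32), 580 (T33), 878 (T34) and 458 (T42), below every nipple and duct fragment, while nipple and duct overlapped.

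Mfge8 was the only member called in ER- luminal-like cells of the 5 tested (Csn1s1, Csn3, Ltf, Lcn2 and Mfge8), with an edgeR adjusted p across locations of 5.20e-04 and a background of 4.17%. Its log2 difference was 1.36 ± 0.22 for nipple minus TEB (adjusted p = 1.90e-04, 1 of 5 called, background 4.62%), 1.02 ± 0.21 for duct minus TEB (5.75e-03, 1 of 5, background 1.43%) and 0.34 ± 0.20 for nipple minus duct (0.568, 0 of 5, background 1.61%). For nipple minus duct Csn1s1 and Csn3, 2 of 5, were at an unadjusted p under 0.05, as were 603 of 5588 genes. Csn1s1 was 0 in every nipple fragment and passed the filter on low counts mainly through its duct fragments. Its p is therefore no support for a difference from nipple, and it also enters the counts and medians of the 5. The call for duct minus TEB was lost with a replicate block on the first digit of the label number (0.75, adjusted p = 0.0991) and with at least 10 cells per fragment (0.127). By DESeq2, 3 of 5 were called across locations. The median log2 difference of the 5 was -0.18 for nipple minus duct, -0.27 for nipple minus TEB and 1.02 for duct minus TEB, against -0.01, -0.02 and -0.01 over all genes tested.

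Whether basal-like cells differed from ER- luminal-like cells in this was itself tested for each pair of locations in the 14 fragments with both. For Mfge8 it was -1.87 ± 0.25 on the log2 scale for nipple minus duct (edgeR adjusted p = 3.45e-05, 1 of 5 members called, background 1.14%) and -2.05 ± 0.28 for nipple minus TEB (2.93e-05, 2 of 5 with Lcn2). For duct minus TEB 0 of 5 were called in edgeR (background 1.07%), and Csn3 stood at -3.01 ± 0.67 (0.0659). There Csn1s1, Csn3 and Lcn2, 3 of 5, were at an unadjusted p under 0.05, against 679 of 7925 genes tested. Csn1s1 entered this test mainly through its high duct ER- luminal-like fragments. Against ER+ luminal-like cells (16 fragments) Mfge8 was called for nipple minus duct at -1.32 ± 0.30 (0.0266, 1 of 4, background 1.39%). For nipple minus TEB and duct minus TEB 0 of 4 members were called (background 6.47% and 3.40%). At an unadjusted p under 0.05 were 1 of 4 and 2 of 4, against 1859 and 1277 of 9449 genes. Between ER+ and ER- luminal-like cells, 0 of 5 were called in edgeR for nipple minus duct, nipple minus TEB or duct minus TEB (background 0.571%, 2.33% and 0.446%). At an unadjusted p under 0.05 were 0, 1 and 0 of 5, against 759, 1117 and 574 of 8752 genes.

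The members Csn1s1, Csn2 and Lalba were counted in few cells. Over the whole table they held 576, 77 and 177 UMIs, against 26645 of Csn3, 34639 of Lcn2, 25632 of Mfge8 and 5216 of Ltf. Most of those in kept cells lay in ER- luminal-like cells, with 399 UMIs of Csn1s1 in 21 cells, 75 of Csn2 in 4 and 93 of Lalba in 13. Csn1s1 was in 15 of 80 duct and 6 of 50 TEB cells and in 0 of 48 nipple cells, which allows a share of cells with a UMI of up to 6.25%. Nipple cells were the shallowest, at a median of 20497.5 UMIs, and a cell without a UMI may still express the gene.

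By fragment, Csn1s1 in duct ER- luminal-like cells was 2.1 (D31), 136 (D32), 18.7 (D51), 48.8 (D52), 298 (D61) and 296 CPM (D62). In TEB it was 26.9 (T32), 27.5 (T33), 38.7 (T34) and 0 (T42), and in nipple 0 in 4 of 4 fragments. Every duct fragment was thus above the 0 of every nipple fragment, but D31 only by 1 UMI in 1 of its 14 cells. Its 2.1 CPM lies below the nipple floor given next, so that D31 is not separated from nipple. Most of the UMIs lay in D61 and D62. Against a floor of 3 UMIs over all nipple ER- cells (2.36 CPM), Csn1s1 was at least 62.2-fold higher in duct and 7.38-fold higher in TEB. Its adjusted p across locations was 0.0633 in edgeR, in a test that it entered mainly through its duct fragments. Lalba was at least 8.78-fold and 8.15-fold higher, with 51 UMIs in duct and 42 in TEB. These bounds depended on single fragments, since without D61 the duct bounds were 36.9 for Csn1s1 and 5.04 for Lalba, and without T31, where 1 cell held 22 of the Lalba UMIs, the TEB bound of Lalba was 4.11. Without N23, the nipple fragment with the most UMIs in these cells, they were 40.9 and 4.86 for Csn1s1 and 5.78 and 5.37 for Lalba in duct and TEB. Csn2 lay in N24 (41 UMIs in 1 cell), D61 (5) and D62 (29).

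The ER- luminal-like cells with Csn1s1, Csn2 or Lalba were also rich in Csn3. Of 178 ER- luminal-like cells, 32 held a UMI of Csn1s1, Csn2 or Lalba, and each of the 32 had at least 23 Csn3 UMIs, at a median of 150 against 55.5 in the other 146. They were deeper as well, at a median of 38844.5 UMIs against 23675.5. Location differed too, since the only nipple cell among the 32 was 1 with Csn2. Over all ER- luminal-like cells the median of Csn3 was 0 UMIs in nipple, 71.5 in duct and 184 in TEB. The parts of depth and location in this were not tested. Csn1s1 and Lalba shared 4 cells, Csn1s1 and Csn2 shared 2, and Csn2 and Lalba shared 0. At least 10 Ltf UMIs were found in 11 of the 32 cells and in 64 of the 146. Outside the class, a TEB basal-like cell of T34 held 15 Csn1s1 UMIs with 0 of Csn3, and a TEB ER+ luminal-like cell of T34 held 10 with 117 of Csn3.

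**Figure D5:**
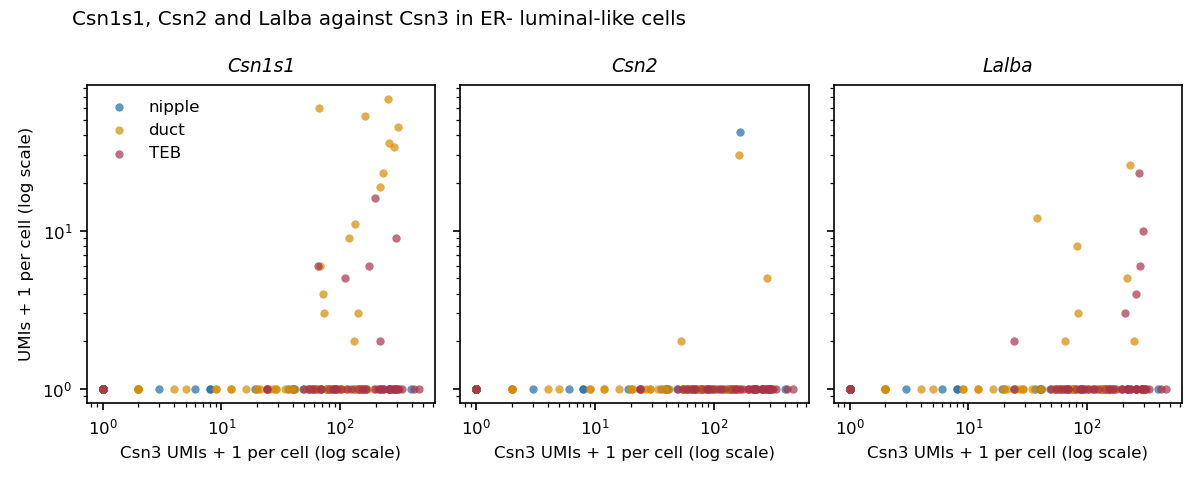
Csn1s1, Csn2 and Lalba UMIs against Csn3 UMIs (all + 1, log axes) in single ER- luminal-like cells, coloured by location. The 32 cells above the baseline of the 3 panels all hold at least 23 Csn3 UMIs, and none of the cells with Csn1s1 or Lalba is from nipple.

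In ER+ luminal-like cells 0 of 4 tested members (Csn3, Lcn2, Ltf and Mfge8) were called in edgeR across locations (background 5.64%). Nor was any called for nipple minus duct (background 2.06%), nipple minus TEB (5.59%) or duct minus TEB (1.87%). Across locations 0 of 4 were at an unadjusted p under 0.05, against 1587 of 8819 genes, and 0 of 4 were called by DESeq2. The smallest adjusted p was that of Ltf for nipple minus TEB, at a log2 difference of 3.63 ± 1.46 (0.194, unadjusted 0.0272). Ltf was 278 (N21), 0 (N22), 4.5 (N23) and 300 CPM (N24) in nipple and 0 to 76.1 in TEB, where T42 held the 76.1 and no other fragment over 1.5. Without T42, Ltf for nipple minus TEB was 7.22 (edgeR adjusted p = 0.0137) and was called.

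A few cells carried most of these UMIs. Cells with at least 10 Csn3 UMIs were 1 of 44 in nipple, 14 of 213 in duct and 4 of 171 in TEB, and held 91.8%, 71.9% and 72.8% of the class's Csn3. For Ltf 3, 7 and 1 cells held 97.1%, 61.9% and 89.9%, and for Lcn2 8, 26 and 22 cells held 91%, 76.3% and 86.1%. A single cell of N21 held 202 of the 220 nipple Csn3 UMIs and 149 of the 342 of Ltf, and a single cell of T42 held 253 of 951 Csn3 UMIs and 62 of 69 of Ltf in TEB. Cells with at least 10 UMIs of Aldh1a3 made up 57.9% of the 19 ER+ luminal-like cells rich in Csn3 and 4.89% of the other 409, and for Ltf 90.9% of 11 and 5.04% of 417. Whether such cells are mixed wells was not tested.

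In fibroblast-like cells 0 of 3 tested members were called across locations (edgeR, background 1.70%). At an unadjusted p under 0.05 were 0 of 3, against 1072 of 8489 genes. Mfge8, which sits above the background of other wells there, was 371 to 439 CPM in nipple (n = 4), 234 to 687 in duct (n = 4) and 186 to 587 in TEB (n = 5), and the locations overlapped. It was higher in fibroblast-like than in ER+ luminal-like cells in 12 of 13 fragments. In myeloid-like cells no member passed the filter on low counts.

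Of 20 other milk genes, 1 of 4 tested in basal-like (background 20.6%), 2 of 6 in ER+ (5.64%) and 2 of 8 in ER- luminal-like cells (4.17%) were called across locations. In ER- luminal-like cells these were Btn1a1, a protein of the milk fat globule membrane (nipple minus TEB 4.34 ± 0.94 log2, edgeR adjusted p = 0.00423), and Cidea, a lipid droplet protein (2.87 ± 0.69, 0.0111), both higher in nipple. For that pair Trf, the iron carrier transferrin, was called as well and was lower in nipple (-3.98 ± 0.98, adjusted p = 0.0417), and the median of the 8 was -0.73 against -0.02 over all genes tested. Btn1a1 was 51.6 to 110.5 CPM in nipple, 10.7 to 61.3 in duct and 0 to 11.6 in TEB. In basal-like cells Trf was higher in nipple than in TEB by 2.87 ± 0.56 (2.57e-04). In ER+ luminal-like cells B4galt1, the partner of Lalba in lactose synthesis, was higher in nipple than in TEB by 1.25 ± 0.21 (1.85e-04), and the mucin Muc1 by 2.64 ± 0.62 (0.00759).

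Of 17 prolactin and STAT5 pathway genes, 2 of 12 tested in basal-like (background 20.6%), 4 of 13 in ER+ (5.64%) and 1 of 9 in ER- luminal-like cells (4.17%) were called across locations. In basal-like cells Id2, an inhibitor of helix-loop-helix factors, was lower in nipple than in TEB by -2.83 ± 0.64 log2 (edgeR adjusted p = 0.00612), and Socs3, a feedback inhibitor of cytokine receptors, was higher by 1.72 ± 0.41 (0.00281). In ER+ luminal-like cells Gata3, a luminal transcription factor, was lower in nipple than in TEB by -1.03 ± 0.24 (0.00711), and Id2 was higher by 2.17 ± 0.41 (0.00472). Socs3 there was lower in duct than in TEB by -1.67 ± 0.33 (0.00471). Ehf, an ETS factor, was in ER- luminal-like cells higher in nipple than in duct by 1.30 ± 0.33 (0.0341). The receptor Prlr was 939, 889 and 914 CPM in nipple, duct and TEB ER+ luminal-like cells and 33.8, 32.5 and 46.2 CPM in ER- luminal-like cells, and so was not highest in the class that holds most Csn3. Elf5 in ER- luminal-like cells was 0 to 11.5 CPM in nipple, 13.6 to 91 in duct and 23.5 to 118 in TEB fragments.

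Of 11 acute phase and NF-kB genes, often induced together with Lcn2, 3 of 6 tested in basal-like (background 20.6%), 0 of 8 in ER+ (5.64%) and 1 of 5 in ER- luminal-like cells (4.17%) were called across locations. In basal-like cells Nfkbia, an inhibitor of NF-kB, was higher in duct than in TEB by 1.45 ± 0.22 log2 (edgeR adjusted p = 3.26e-05) and the transcription factor Cebpb by 0.99 ± 0.25 (0.00556), while Cebpd was higher in nipple than in duct by 1.999 ± 0.48 (0.0153). In ER- luminal-like cells Cebpd was higher in nipple than in duct by 1.05 ± 0.26 (0.0286). Of the luminal markers, 4 of 8 tested in basal-like, 0 of 8 in ER+ and 3 of 10 in ER- luminal-like cells were called, against the same background. In basal-like cells Krt8, Krt18 and Krt19 were each lower in TEB than in duct, by 1.57, 1.70 and 2.04 log2 (adjusted p = 1.25e-13, 1.90e-09 and 1.57e-06).

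Neutrophils store Ltf and Lcn2 in their granules. No neutrophil gene passed the filter on low counts in these 3 classes, and of 6 measured, S100a8 held 19 UMIs in basal-like, 320 in ER+ and 163 in ER- luminal-like cells, while the other 5 held at most 6 in a class. Their summed level reached 497 CPM in a duct ER- luminal-like fragment, against a duct median of 1.54, and its part in the Ltf and Lcn2 levels was not tested. Of 6 nipple epidermis genes, 0 of 2 tested were called in each of the 3 classes.

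Over 66 sums of a fragment and a class and 5532 genes, the genes whose levels ran most like a member's were ranked by Spearman's rho, as a description over sums that share fragments and classes. Those most like Csn3 were Dbi (0.82), F2rl1 (0.80) and Kit (0.80), and those most like Ltf were Wfdc18 (0.78), 3110079O15Rik (0.76) and Atp6v1b1 (0.74). Lcn2 ran with Fxyd3 (0.92), Ppl (0.91) and Cdc42ep3 (0.88), and Mfge8 with the contractile and matrix genes Pls3 (0.85), Tpm2 (0.84) and Ctgf (0.83). The rarer Lalba reached 0.53 (Dbi), and Csn2 had too few UMIs to be ranked.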

How the data were processed

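Single cells of 16 mouse mammary fragments (4 nipple, 6 duct, 6 TEB) were profiled by 3' SMART-seq with ERCC spike-ins. The authors used Trim Galore for trimming, UMI-tools for well barcodes and UMIs, STAR for alignment to mm10 with unique hits kept, and featureCounts for genes, and deposited raw UMI counts of each cell. Tool versions are not given in the sources used here. Counting error, and loss of reads that map to several places, limit low counts, and intervals and floors cover counting error only.

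The study's limits on cells were used (ERCC share up to 5%, 5000 to 120000 UMIs, 200 to 6000 genes), with the share of ERCC, the number of genes and the cell cycle regressed out as there, 2000 variable genes and 14 components in Seurat 5.3.0 (R 4.3.3, resolution 0.5, which no source gives). Clusters were named from marker lists without any member. Of the 7 members, 6 (not Mfge8) were among the variable genes. No doublet caller was run, and the 67 ERCC rows stayed out of library sizes and tests. For each class, the counts of a fragment with 5 or more cells were added up and tested in edgeR 4.0.16 (quasi-likelihood with robust estimation, TMM scaling, filterByExpr, all locations in 1 fit, no block), with Benjamini-Hochberg adjustment over all genes tested and a threshold of 0.05. The study tested single cells by Wilcoxon, whereas cells of a fragment share a library and were not used as replicates here. The class by location term used the fragment as a factor. Scripts were tested on simulated data. DESeq2 1.42.0 and the other alternatives are in the closing section.

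The text names all 7 members, at most 3 called genes with the smallest p per list and class, and the 3 genes most like each member with at least 100 UMIs. The members, lists and tests were chosen with earlier results of these data known.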

Additional observations from a re-analysis of the deposited data

Results flagged for a closer look

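In 4 of 35 groups of 4 to 6 fragments examined, the highest or lowest fragment lay far from the rest of its group. Chance would flag about 1 in 20 groups of normally distributed values. Skewed low counts may be flagged more often, and their rate was not checked. Csn3 of basal-like cells was 257.2 CPM in duct fragment D31, against 84.4 in the next. Csn3 of nipple fragment N21 was 384.5 CPM in ER+ luminal-like cells, against 10.6 in the next, and a single cell held 202 UMIs. It was 156.4 CPM in ER- luminal-like cells of N21, against 1248 in the next. Ltf of ER+ luminal-like cells was 76.1 CPM in TEB fragment T42, against 1.49 in the next, and a single cell held 62 of its 63 UMIs. These values are given with no cause, and whether wells were mixed was not tested.

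In 4 comparisons the same location contrast differed between classes (edgeR, log2 scale). For basal-like minus ER- luminal-like cells these were Mfge8 for nipple minus duct (-1.87, adjusted p = 3.45e-05), Mfge8 for nipple minus TEB (-2.05, 2.93e-05) and Lcn2 for nipple minus TEB (1.60, 0.0297). For basal-like minus ER+ luminal-like cells it was Mfge8 for nipple minus duct (-1.32, 0.0266).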

How the results depend on the processing

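Over all alternatives, 256 of 274 values of a called difference between locations stayed called in the same direction and 18 lost the call, of which 7 came with the limit on Krt18. With basal-like cells limited to under 10 Krt18 UMIs, which left 2 duct fragments, 0 of 3 members were called in basal-like cells in place of 3, and 239 of 5330 genes in place of 1504 of 7316, while thinning gave 683 genes and at least 10 Krt5 UMIs 953. Over all genes ER+ luminal-like cells had 497 calls (763 by DESeq2, 288 after thinning) and ER- luminal-like cells 233 (399 by DESeq2, 417 without the filter, 136 with at least 10 cells, 139 after subtraction). Lcn2 for duct minus TEB in basal-like cells also lost its call with at least 10 cells per fragment (adjusted p = 0.0976), no filter on low counts (0.0721), thinning (0.123) and without D51, D52, D61, D62, T33 or T34 (0.0515 to 0.0706). Mfge8 for duct minus TEB in ER- luminal-like cells lost it with at least 10 cells (0.127). In ER- luminal-like cells the count of called members was 3 under DESeq2 and without the filter, and 2 after thinning or subtraction of other wells, in place of 1. Leaving out a fragment gave 1 to 2, with 2 without D31, D51, D61, D62, N21 or T42. In ER+ luminal-like cells leaving out a fragment gave 0 to 1 in place of 0, with 1 without T42. For the class by location term, basal-like minus ER- luminal-like cells gave 2 calls in place of 0 for duct minus TEB with at least 10 cells, and basal-like minus ER+ luminal-like cells 0 in place of 1 for nipple minus duct after subtraction (Mfge8 -1.73, adjusted p = 0.279). The causes were not tested.

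No call reversed. Differences without a call that changed sign (log2) were, after subtraction of other wells, Csn3 for nipple minus duct in basal-like (0.39; 0.80 with the limit on Krt18) and ER+ luminal-like cells (1.35), Mfge8 in ER+ luminal-like cells for nipple minus TEB (-0.10) and duct minus TEB (-0.0574), and Lcn2 in ER- luminal-like cells for duct minus TEB (0.0054). The others in ER+ luminal-like cells were Csn3 for nipple minus duct without regression (0.0212) or with at least 10 cells (0.26), Csn3 after thinning (0.12 for nipple minus TEB, 0.14 for duct minus TEB) and without the cell with most of its UMIs (0.0501 and 0.135), Lcn2 without such a cell (0.114 and 0.0128) and with at least 10 cells (0.18 for nipple minus TEB), and Mfge8 for nipple minus TEB without the filter (-0.0158) and after thinning (-0.166; -0.0260 for duct minus TEB). Leaving out a fragment gave ranges across 0 in ER+ luminal-like cells for nipple minus duct of Csn3 (-3.94 to 0.35) and Lcn2 (-0.13 to 0.44), nipple minus TEB of Lcn2 (-0.33 to 0.18) and Mfge8 (-0.16 to 0.23) and duct minus TEB of Lcn2 (-0.558 to 0.0451), and in ER- luminal-like cells for duct minus TEB of Lcn2 (-0.22 to 0.11).

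Label numbers 31 and 32 occur in both duct and TEB, and the labels do not say whether they pair fragments. The correlations of deviations in basal-like sums, 0.00187 and -0.00593, are too few and too noisy to decide this. With the label number as the replicate block, the duct minus TEB contrast rests on the fragments numbered 31 and 32, since every other number occurs in a single location. Its calls are therefore no check over all fragments. In basal-like cells it was -2.22 for Csn3, 1.25 for Lcn2 and 1.38 for Mfge8, all called. In ER+ luminal-like cells Ltf then gained a call (5.17, edgeR adjusted p = 9.14e-04) while Csn3 was 1.18 and Lcn2 0.41. With the first digit as the replicate block Ltf was 5.25 without a call (0.116), Csn3 in ER+ luminal-like cells was 0.47, and Mfge8 in ER- luminal-like cells lost its call (0.75, 0.0991). That contrast too rests on a part of the fragments, those that share the first digit of 31 and 32. The block on the number could not be estimated in ER- luminal-like cells, and without regression the basal-like class held 12 fragments and no nipple comparison. The class by location term for nipple minus duct and the limit on Krt5 were added after the data were seen. Depth limits Csn1s1, Csn2 and Lalba, where 0 nipple UMIs allow up to 2.36 CPM.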

Other observations

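In the 87 cells that stayed unnamed (68 led by Tpsb2, Cma1 and Cpa3 and 19 led by Gm13889, Avpr1a and Pcp4l1), Mfge8 pooled over cells was 784 CPM in nipple, 449 in duct and 198 in TEB. Csn3 was 9.56, 156 and 84.5 CPM in the same order, and 100 of its 135 duct UMIs lay in 1 cell.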
